A study of Rattus norvegicus with 18 samples.

Results

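The induction described here is the change in RNA level over the first 2.5 h after MEF2-VP16-ER was switched on in rat hippocampal neurons, less the change over the same time in control neurons, with each set of arrays compared within its own replicate number. The neurons were grown in dissociated culture, received a lentivirus on day 3 in vitro, and were treated on day 10 with 4-hydroxytamoxifen (4OHT), and their total RNA was hybridised to Affymetrix arrays. Of the 18 arrays of the series, the 12 taken at 0 and 2.5 h were used. They form 4 groups of 3 biological replicates: neurons with MEF2-VP16-ER at 0 h, the same at 2.5 h, neurons with the control MEF2deltaDBD-VP16-ER at 0 h, and the same at 2.5 h. Every culture therefore carried a virus and a VP16-ER fusion, and the control fusion lacks the DNA-binding domain. The remaining 6 arrays, at 1 h, were kept apart and are given beside the results. The labels do not say whether replicates came from separate animals or cultures, so the p-values measure only the spread between these samples, which may in part be technical.

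MEF2 proteins are transcription factors that bind an AT-rich DNA site and were first known from muscle, where they switch on contractile and metabolic genes. In neurons their activity is raised by calcium entry at active synapses, and they are known for limiting the number of excitatory synapses and for controlling Bdnf and the Nr4a nuclear receptors. Fusion to the VP16 activation domain makes the factor a strong activator, and fusion to the ligand-binding domain of the estrogen receptor keeps it inactive until 4OHT is added. Genes that respond within hours of 4OHT can include direct targets and genes that lie downstream of these.

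Arrays with the same replicate number were alike beyond their group. After the group means were removed, all 18 same-number pairs of arrays were positively correlated over probe sets, with r between 0.21 and 0.75, while the 36 pairs of different number lay between -0.62 and 0.28. Each of the 12 arrays was closest to an array of its own number. Replicate 1 stood apart in astrocyte markers: the summed intensity of 13 of them was 54778 to 62599 in its 4 arrays, and 44147 to 48414 in the other 8. Replicate 3 had the highest sum of oligodendrocyte markers, 14200 to 18069 against 8477 to 12487 in the other 8 arrays. Map2, a neuronal cytoskeletal protein, was bright in all 12 arrays (11760 to 13760), as was the astrocyte protein Gfap (4260 to 12660), whereas the endothelial gene Cldn5 stayed between 54.0 and 65.4. These cultures therefore held astrocytes as well as neurons.

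With replicate number as a block, limma called 242 of 31042 probe sets at an adjusted p under 0.05 (0.78%). Of these, 142 rose (0.457%) and 100 fell (0.322%), where rose and fell refer to the induction defined above. They name 96 genes that rose and 75 that fell, none of them both, and 47 called probe sets carry no symbol or several. Without the block the same arrays gave 32 calls (0.103%), 28 higher and 4 lower, and all 32 were among the 242. The block thus added 210 probe sets, 114 higher and 96 lower, and 185 of these moved by less than 1 log2 unit. The median size of the 210 was 0.69 log2 units, against 1.32 in the probe sets called in both fits. The estimate of an induction is the same in both fits, since every number has all 4 groups. What differs is the error: in the 210 its median SE was 0.11 with the block and 0.17 without it, and over all probe sets 0.10 and 0.11. All 242 had the same sign in each of the 3 replicate numbers, as had 30.3% of all probe sets. These sizes, errors and signs describe the calls and are no test of their own.

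The number of calls depended on single arrays. Without 1 array at a time, 128 to 246 probe sets were called. The count fell below the full fit by more than 1.5 times without Control 0 h replicate 1 (153), Control 0 h replicate 2 (128), Control 2.5 h replicate 1 (161), Control 2.5 h replicate 3 (146), MEF2-VP16-ER 0 h replicate 1 (134) or MEF2-VP16-ER 0 h replicate 3 (144). Without a whole replicate number, which leaves 8 arrays, 59, 54 and 64 were called (without replicates 1, 2 and 3). With the number as a random effect 126 were called, and 43 of 69 called genes named here kept the call. Among those that lost it were Sstr2, Inhbb, Bdnf, Hspb1 and Nr4a2, with adjusted p of 0.0562, 0.125, 0.0816, 0.308 and 0.255. In every one of these fits each of the 210 probe sets kept its direction. Without a whole number this was fixed in advance, because each had the same sign in all 3 numbers. The random effect leaves the estimate unchanged. Without 1 array the kept direction was favoured for the same reason, so it adds no support.

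Fgl2, which encodes a fibrinogen-like protein made in secreted and membrane forms, had the largest induction, 2.73 ± 0.14 log2 units (± gives the SE from 4 groups of 3 arrays, here and elsewhere; adjusted p = 1.49e-05). In MEF2-VP16-ER neurons its intensity was 88.9, 36.9 and 35.6 at 0 h in replicates 1, 2 and 3, and 681, 314 and 309 at 2.5 h. Control neurons gave 68.1, 39.1 and 30.7 at 0 h and 60.4, 38.2 and 31.2 at 2.5 h. Replicate 1 was the brightest in all 4 groups, and within each number the rise was of nearly the same size (2.87, 2.67 and 2.64). Without the block, the difference in level between numbers stayed in the error and the adjusted p was 0.114. A further Fgl2 probe set rose by 2.13, and the other 2 were not called.

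Other large rises did not need the pairing. Hs3st1, a heparan sulfate sulfotransferase, rose by 2.40 ± 0.14, Col10a1, a collagen, by 2.39 ± 0.25, and Pwwp3b, a protein with a PWWP chromatin-binding domain, by 2.29 ± 0.13. Rgs2, which speeds the shut-off of G-protein signals, rose by 2.07 ± 0.20, and the tyrosine phosphatase gene Ptpn21 by 1.99 ± 0.24. All 5 were called in both fits. Their inductions in replicates 1, 2 and 3 were 2.19, 2.20 and 2.81 for Hs3st1 and 1.85, 2.02 and 2.34 for Rgs2. Control neurons contributed to Hs3st1, whose level there changed by -0.80 (adjusted p = 0.155).

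The largest falls included genes that only the paired fit called. Sstr2, a somatostatin receptor that lowers neuronal excitability, had the largest among called probe sets with 1 gene symbol, -1.30 ± 0.15 (adjusted p = 0.00221, 0.422 without the block). Its other probe set gave -0.34 and was not called, and a called probe set without a symbol gave -1.42. The intensity of Sstr2 went from 493, 570.0 and 438 before 4OHT to 189.6, 189 and 94.4 after 2.5 h in MEF2-VP16-ER neurons, and from 532, 589.8 and 418 to 446, 486 and 306 in control neurons. Replicate 3 was lowest in every group, and the 3 values at 2.5 h with MEF2-VP16-ER lay below all 9 others. Inhbb, the beta-B subunit of activin and inhibin, fell by 1.21 ± 0.11 on the log2 scale (adjusted p = 0.000448, 0.719 without the block). Its level with MEF2-VP16-ER was 474, 831 and 770.0 at 0 h and 174, 312 and 322 at 2.5 h, and with the control fusion 505, 714 and 833 and 472, 726 and 689. Replicate 1 was the dimmest in each group, and the induction was below 0 in all 3 numbers (-1.28, -1.39 and -0.95).

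Gse1, a coiled-coil protein found in histone demethylase complexes, fell by 1.19 ± 0.09 and was called in both fits. A second Gse1 probe set fell by 0.77, and the third gave 0.24 and was not called. Nin, the centrosomal protein ninein, fell by 1.07 ± 0.11 (adjusted p = 0.00134, 0.0572 without the block). Txnip and Arrdc4, related arrestin-domain proteins that restrain glucose uptake, had inductions of -1.13 ± 0.21 and -0.95 ± 0.19 (adjusted p = 0.0368 and 0.0482). In MEF2-VP16-ER neurons Txnip went from 3153, 2273 and 2496 to 1272, 1009 and 612, and in control neurons from 3264, 3406 and 2149 to 2895, 2639 and 1485. Both genes were close to the threshold: leaving out 1 array at a time, Txnip kept its call in 4 of 12 fits (adjusted p up to 0.11) and Arrdc4 in 2 of 12 (up to 0.148).

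**Figure D1:**
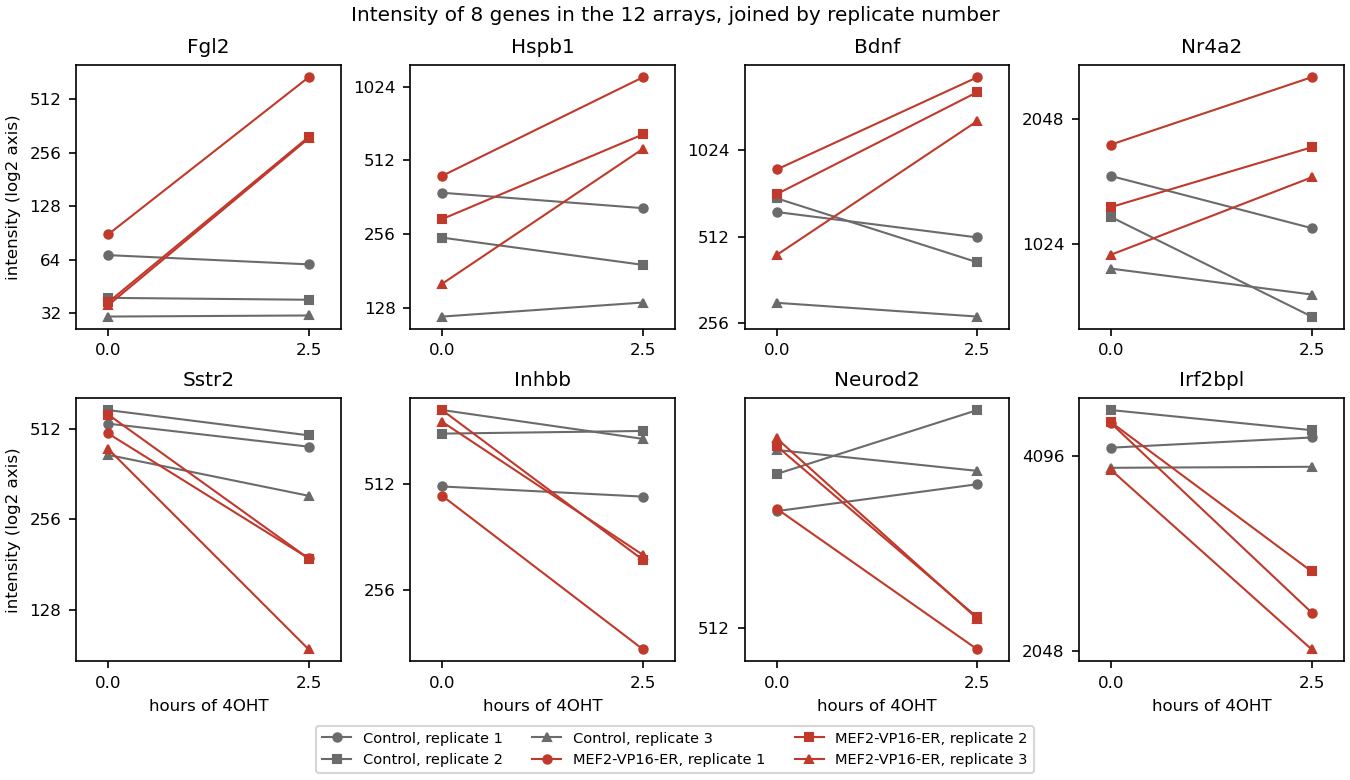
Deposited intensity (log2 axis) at 0 and 2.5 h for 8 genes, with lines joining arrays of the same replicate number; MEF2-VP16-ER neurons are red and control neurons grey. In Hspb1 and Bdnf the 3 red lines start at different levels and all rise, in Fgl2 replicate 1 starts above the other 2, and in Sstr2, Inhbb, Neurod2 and Irf2bpl all 3 red lines go down.

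Activity-regulated genes were among those that the pairing added. Bdnf, the neurotrophin that acts through the TrkB receptor, rose by 1.63 ± 0.17 (adjusted p = 0.00134, 0.532 without the block). Its intensity in MEF2-VP16-ER neurons was 879, 721 and 442 at 0 h and 1844, 1636 and 1297 at 2.5 h. Control neurons went from 624, 697 and 301 to 509, 417 and 269.5, downward in every replicate, and that change of -0.39 was not called. A second Bdnf probe set gave 0.46 and was not called (adjusted p = 0.16). Hspb1, a small heat shock protein, rose by 1.50 ± 0.17 (adjusted p = 0.00191, 1.00 without the block). It went from 443, 295 and 161 to 1118, 654 and 571 with MEF2-VP16-ER and from 378, 248 and 118 to 327, 192 and 135 with the control fusion. Replicate 1 was the brightest and replicate 3 the dimmest in every group, with inductions of 1.50, 1.45 and 1.56. Fibroblast marker sums had the same order over the numbers (11797 to 12451 in replicate 1, 9516 to 11233 in replicate 2, 7880 to 8702 in replicate 3), and their part in these levels was not tested.

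Of 25 measured effector genes of neuronal activity, each taken by its brightest probe set, 4 rose and 0 fell, beside 0.598% and 0.492% of all 14217 genes. These were Rgs2, Bdnf, Inhba (the beta-A subunit of activin, 1.45 ± 0.19) and the kinase gene Sgk1 (0.77 ± 0.11). The shares over all genes are the same for every gene list below. Homer1, a postsynaptic scaffold, gave 0.26 ± 0.11 by its probe set of smallest p (adjusted p = 0.494). The 5 Homer1 probe sets ran from 0.0089 to 0.43, with 0 called. Arc, a regulator of AMPA receptor uptake, gave -0.18 ± 0.13 (adjusted p = 0.803).

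Immediate early transcription factors moved in both directions: of 29 measured, 5 rose and 3 fell, with a median of 0.03 against -0.01 over all genes. The orphan nuclear receptors Nr4a1, Nr4a2 and Nr4a3 all rose, by 1.11 ± 0.11, 1.00 ± 0.13 and 0.70 ± 0.08, and only Nr4a1 was called without the block. Nr4a2 went from 1774, 1255 and 964 to 2573, 1746 and 1479 with MEF2-VP16-ER and from 1489.9, 1188 and 893 to 1117, 685 and 774 in control neurons. Its control level moved down in each number, and that change of -0.46 was not called. Klf6, a zinc-finger factor linked to axon growth, rose by 0.89 ± 0.11 (adjusted p = 0.00291), from 1536, 1655 and 1569.5 to 2642, 2371 and 2076 with MEF2-VP16-ER beside 1491, 1474 and 1321 and 1238, 1243 and 952 in control neurons. The fifth riser was Nfil3, a leucine-zipper repressor, with an induction of 1.20 ± 0.15 (adjusted p = 0.00321).

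Klf10, a factor induced by TGF-beta, fell by 0.79 ± 0.12 (adjusted p = 0.00918, 0.384 without the block). MEF2-VP16-ER neurons had 1497, 1181 and 1285 at 0 h and 859, 871 and 704 at 2.5 h, and control neurons 1323, 1213 and 981 and 1474, 1189.9 and 1097. The 3 values at 2.5 h with MEF2-VP16-ER were thus below the rest. Mafk, a small Maf protein, had an induction of -0.59 ± 0.07, and Srf, the serum response factor, -0.47 ± 0.09 (adjusted p = 0.0394). Srf kept its call in 1 of 12 fits without 1 array (adjusted p up to 0.124), and its other 2 probe sets gave 0.04 and 0.02. Egr1, a factor that follows Srf in the activity response, gave -0.80 ± 0.19 and was not called (adjusted p = 0.105, or 0.0389 with all 18 arrays in the fit). With the number as a random effect its adjusted p was 0.863, and 0 of 12 fits without 1 array called it.

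Foxo1, a forkhead factor restrained by insulin signalling, rose by 0.79 ± 0.11 (adjusted p = 0.0062), from 644, 604 and 586 to 971, 836 and 804 with MEF2-VP16-ER. In control neurons it was 628, 697 and 652 and 579, 571 and 458. The other 2 Foxo1 probe sets gave 0.13 and 0.056 and were not called. Ppargc1a, a coactivator of mitochondrial genes and a MEF2 target in muscle, rose by 0.69 ± 0.10 (adjusted p = 0.00748), and with MEF2-VP16-ER went from 456, 470.3 and 544 to 739, 619 and 889.7 in the 1 called probe set of 3. Cpeb3, which controls translation of synaptic mRNAs, rose by 0.72 ± 0.10 (adjusted p = 0.00708).

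At the cell surface, 3 of 23 measured cadherins and protocadherins rose and 0 fell, and 20 of the 23 estimates were above 0, where 48.0% of all genes were. Their median was 0.14 (0.19, 0.18 and 0.19 in the 3 numbers), against -0.01 over all genes. By the probe set of smallest p, Pcdh17 rose by 0.74 ± 0.08 (adjusted p = 0.00191), Pcdh20 by 0.85 ± 0.10 (adjusted p = 0.00285) and Cdh10 by 0.71 ± 0.11 (adjusted p = 0.0141). Pcdh17 went from 2528, 2868 and 2262 to 3652, 4054 and 3259 with MEF2-VP16-ER, and from 2689, 3366 and 2636 to 2378, 2646 and 2374 in control neurons. The brightest probe sets, which the counts and median use, gave 0.67 for Pcdh17 and 0.68 for Pcdh20, both called. All 3 genes encode homophilic adhesion proteins of neuronal membranes. Without MEF2-VP16-ER 0 h replicate 1, Control 0 h replicate 2 or MEF2-VP16-ER 0 h replicate 3 the adjusted p of Cdh10 was 0.0612, 0.0535 or 0.0552. Pcdh10, known as a MEF2-dependent adhesion gene of synapse elimination, gave 0.70 ± 0.18 and was not called (adjusted p = 0.162). Compared at 2.5 h alone, without the 0 h arrays, the constructs differed in Pcdh10 by 0.84 (adjusted p = 0.0248). Its induction was called in 1 of 12 fits without 1 array (adjusted p up to 0.36). The adjusted p was 0.0885 with all 18 arrays in the fit and 0.423 with the number as a random effect.

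Among 44 axon guidance genes 2 rose and 1 fell, beside 0.598% and 0.492% of all genes. Sema6a, a transmembrane semaphorin, rose by 0.66 ± 0.07, and Epha3, an ephrin receptor, by 0.63 ± 0.08 (adjusted p = 0.00345). Epha3 moved by 0.65, 0.63 and 0.61 in the 3 numbers. A second Epha3 probe set rose by 0.53, and the third gave -0.17 and was not called. Of 5 Sema6a probe sets 2 were called, and the brightest rose by 0.84. Sema4a had an induction of -0.43 ± 0.08 (adjusted p = 0.0311), which kept its call in 2 of 12 fits without 1 array (adjusted p up to 0.108). Timp3, an inhibitor of matrix metalloproteinases, rose by 0.68 ± 0.08 (adjusted p = 0.00285), from 1705, 1392 and 1591 to 2509, 2084 and 2532 with MEF2-VP16-ER. Of 4 Timp3 probe sets 2 were called. Ptprdl, a receptor-type phosphatase by its name on the array, rose by 0.85 ± 0.11 (adjusted p = 0.00491).

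Man1a1, a Golgi mannosidase that trims N-glycans, had the smallest p among named rises under 1 log2 unit that were called only with the block, with an induction of 0.82 ± 0.07 (adjusted p = 0.000508, 0.069 without the block). Its intensity was 176, 163 and 146 at 0 h and 254, 248 and 219.9 at 2.5 h with MEF2-VP16-ER, compared with 195, 169.6 and 163 and 159, 135 and 128 in control neurons. The 2 sides moved apart in every number, by 0.76, 0.85 and 0.85. A second Man1a1 probe set rose by more, 1.23 (adjusted p = 0.00128, 0.373 without the block). Rapgef5, an activator of the small GTPase Rap, rose by 0.89 ± 0.09, from 1105, 1292 and 1049.6 to 2140.5, 2365 and 1812 with MEF2-VP16-ER. Numb, an endocytic adaptor that restrains Notch, rose by 0.71 ± 0.10 and was the single call among 26 measured Notch pathway genes. Sptssb, a small subunit of serine palmitoyltransferase, rose by 0.96 ± 0.13 from a dim level, 30.8, 30.5 and 29.3 to 88.4, 79.5 and 56.8, where the scale of log2(intensity + 16) understates the change. Filip1, which binds filamin A, and Mlf1 rose by 0.79 ± 0.11 and 0.92 ± 0.13. Numb and Sptssb had 1 called probe set of 2, and Filip1 1 of 3.

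**Figure D2:**
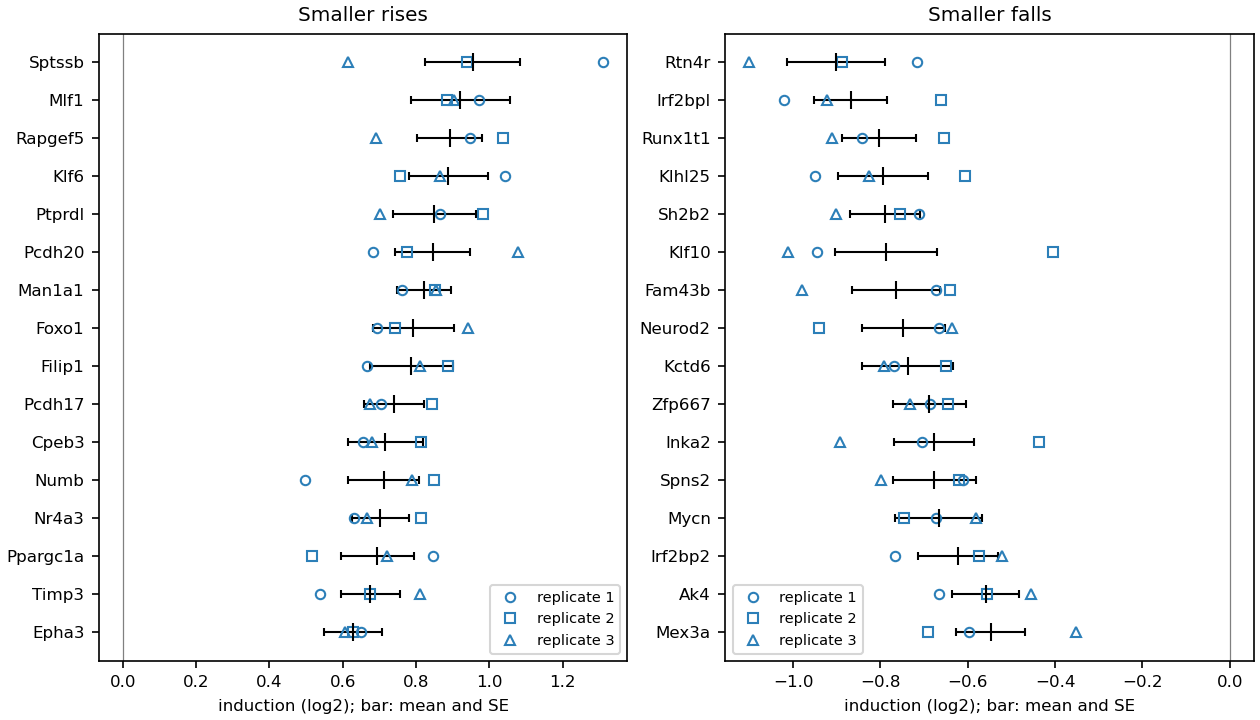
Induction at 2.5 h in log2 units for the 16 rises and 16 falls under 1 log2 unit with the smallest p among probe sets called only with the block; points are replicates 1, 2 and 3, and bars are the mean ± SE of the paired fit. All 3 points of each gene lie on the same side of 0.

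Among 25 measured neurogenic and inhibitory basic helix-loop-helix factors, 0 rose and 3 fell (Neurod2, Neurod6 and Bhlhe41), beside 0.598% and 0.492% of all genes. Only 6 of the 25 estimates were above 0, where 48% of all genes were. The median of the 25 was -0.20 (-0.20, -0.25 and -0.06 in the 3 numbers). At an unadjusted p under 0.05 there were 1 higher and 11 lower. Over all probe sets, 2654 of 31042 had such a p in either direction. Neurod2, a factor of excitatory neuron differentiation, fell by 0.75 ± 0.09 (adjusted p = 0.0039, 0.12 without the block). It went from 717, 856 and 875 to 481, 527 and 525 with MEF2-VP16-ER and from 712, 791 and 847 to 768, 948 and 798 with the control fusion, and the 3 values at 2.5 h with MEF2-VP16-ER were the lowest of the 12. Neurod6, a related factor of cortical and hippocampal excitatory neurons, had an induction of -0.55 ± 0.09 (adjusted p = 0.0208) and a call in 5 of 12 fits without 1 array (up to 0.0766). Bhlhe41, a repressor of clock genes, had -0.70 ± 0.11, with a call in 9 of the 12 (up to 0.0612).

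Neurod2 and Neurod6 also stood among the excitatory neuron markers, where 3 of 12 fell and 0 rose, beside 0.492% and 0.598% of all genes. Of the 12 estimates 5 were above 0, up to 0.46, and at an unadjusted p under 0.05 there were 2 higher and 3 lower. The other was Fezf2, a factor of deep-layer projection neurons, with -0.56 ± 0.09 (adjusted p = 0.0196) and a call in 4 of 12 fits without 1 array (up to 0.0754). With MEF2-VP16-ER at 2.5 h the summed marker intensity was 20484 to 25143, and in the other 9 arrays 23710 to 32556, and within each number it was lowest at 2.5 h with MEF2-VP16-ER. Much of this sum came from Neurod6, which gave 5577, 6058 and 5032 there, against 7901, 9674 and 8717 at 0 h. In bulk RNA, fewer cells of a type and less RNA per cell cannot be told apart. None of 14 general neuron markers and none of 13 inhibitory neuron, 13 astrocyte, 13 oligodendrocyte, 15 microglia, 14 fibroblast or 12 endothelial markers was called by limma. At an unadjusted p under 0.05, 5 microglia markers were higher, and each of the other lists held at most 2 genes. Such a p was found in 2654 of all 31042 probe sets.

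Transcriptional cofactors and zinc-finger proteins were among the other small falls. Irf2bpl had the smallest p among them, with an induction of -0.87 ± 0.08 (adjusted p = 0.000712, 0.107 without the block). It went from 4609, 4625 and 3902 to 2347, 2718 and 2058 with MEF2-VP16-ER and stayed at 4225, 4832 and 3933 and 4382, 4498 and 3947 in control neurons. The 3 values of Irf2bpl at 2.5 h with MEF2-VP16-ER thus lay below the other 9. Its other 2 probe sets gave -0.31 and -0.032 and were not called. Irf2bp2, of the same family of corepressors, fell by 0.62 ± 0.09, and its other probe set gave -0.41 and was not called. Runx1t1, a corepressor that recruits histone deacetylases, fell by 0.80 ± 0.09 and in 3 of its 4 probe sets. Zfp667, a zinc-finger protein, had -0.69 ± 0.08, and its other probe set gave -0.20 and was not called. Mycn, a growth-promoting factor of neural progenitors, fell by 0.67 ± 0.10, from 2116, 2762 and 2355 to 1196, 1546 and 1157 with MEF2-VP16-ER.

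Rtn4r, the Nogo receptor that restrains axon growth, fell by 0.90 ± 0.11 (adjusted p = 0.00312, 0.245 without the block), and another of its probe sets by 1.10. The third Rtn4r probe set gave -0.37 and was not called. Its intensity went from 866, 1209.6 and 1139 to 586, 809.8 and 619.7 with MEF2-VP16-ER, and from 891, 993 and 894 to 1002, 1243 and 1057 in control neurons. The control neurons moved up in every number, and the change of 0.24 there was not called. Sh2b2, an adaptor of receptor tyrosine kinases, had -0.79 ± 0.08. Inka2, an inhibitor of the kinase PAK4, had -0.68 ± 0.09, and Spns2, a sphingosine-1-phosphate transporter, -0.68 ± 0.10.

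Klhl25 and Kctd6, adaptors of cullin ubiquitin ligases, had inductions of -0.79 ± 0.10 and -0.74 ± 0.10. Ak4, a mitochondrial adenylate kinase, had -0.56 ± 0.08, Mex3a, an RNA-binding protein, -0.55 ± 0.08, and Fam43b -0.76 ± 0.10. Adjusted p-values of these 5 ranged from 0.0044 to 0.00803, and none was called without the block. Another Ak4 probe set gave -0.10 and the other Mex3a probe sets -0.49 and -0.21, and none of these was called.

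The activin pathway had calls on both sides. Of 47 measured activin, BMP and TGF-beta genes, 3 rose (Inhba, Acvr2b and Bambi) and 1 fell (Inhbb), beside 0.598% and 0.492% of all genes. Inhba, the beta-A subunit, went from 128, 177 and 121 to 300.4, 305 and 397 with MEF2-VP16-ER, while the beta-B subunit gene moved the other way. A second Inhba probe set gave 0.013 and was not called. Acvr2b, an activin receptor, had 0.63 ± 0.13 (adjusted p = 0.0478), with a call in 1 of 12 fits without 1 array (up to 0.156). Bambi, a decoy receptor that dampens this pathway, rose by 1.75 ± 0.13.

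Over all genes 0.598% rose and 0.492% fell, the shares to set beside the lists that follow. Of 17 measured regulators of G-protein signalling, 3 rose and 0 fell. Besides Rgs2 these were Rgs16 (1.50 ± 0.19, adjusted p = 0.00436) and Rgs3 (1.37 ± 0.20, adjusted p = 0.00982), neither called without the block. The other 2 Rgs3 probe sets gave 0.20 and -0.074 and were not called. Spry1, a feedback inhibitor of growth factor signalling, rose by 1.28 ± 0.16 and was the single call in 13 genes of Ras-MAPK feedback. Of 48 potassium channel genes 2 rose and 1 fell. Kcna4, an A-type channel subunit, rose by 1.42 ± 0.10, Kcnk1, a leak channel, had -0.82 ± 0.12, and Kcnv1, a modifying subunit, 0.51 ± 0.10 with a call in 1 of 12 fits without 1 array (up to 0.133). Among 18 heparan sulfate enzymes Hs3st1 and the polymerase gene Ext1 (0.61 ± 0.10) rose, the latter with a call in 6 of the 12 (up to 0.0626). Cited2, a CBP-binding coactivator, was the 1 call among 18 estrogen receptor targets, with 1.82 ± 0.14 by its probe set of smallest p and 1.56 by its brightest.

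Several gene groups of the synapse and of metabolism had 0 calls in either direction at an adjusted p under 0.05 in limma: 39 glutamate receptor and scaffold genes, 14 GABA and inhibitory synapse genes, 29 synaptic vesicle genes, 14 p53 targets, 25 cell cycle genes and 20 genes of cholesterol synthesis. In the last, all 20 estimates were below 0, with a median of -0.30 (-0.44, -0.47 and -0.12 in the 3 numbers) and a range of -0.67 to -0.01. At an unadjusted p under 0.05, 8 of these 20 were lower, and over the other 5 groups 6 were higher and 4 lower. Among all 31042 probe sets 2654 had such a p in either direction. Insig1, which holds SREBP in the endoplasmic reticulum and was chosen after its values were seen, gave -0.53 ± 0.14 (adjusted p = 0.164), with an SE of 0.37 without the block. Muscle genes known as MEF2 targets gave 1 call in 45, Ppargc1a, and a median of 0.05. The myosin light chain gene Myl1 gave 0.45 ± 0.10 and was not called (adjusted p = 0.0793, or 0.0222 with all 18 arrays in the fit). Its adjusted p was 0.0427 with a pseudocount of 1, 0.0197 with trend and robust, and 0.0893 with the number as a random effect. In 0 of 12 fits without 1 array was it called.

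**Figure D3:**
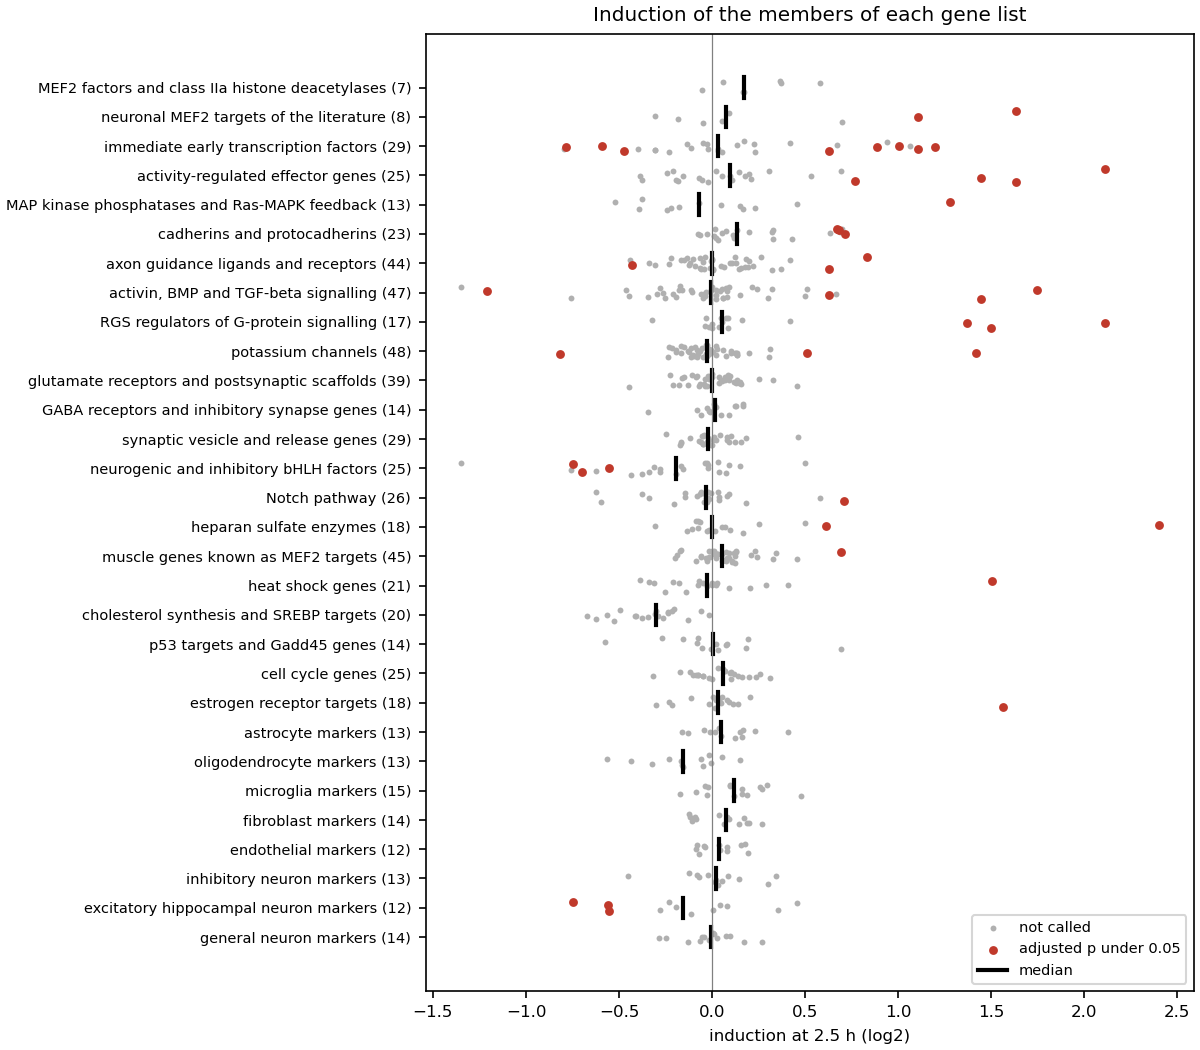
Induction at 2.5 h in log2 units for the measured members of 30 gene lists, each gene by its brightest probe set; red points are called, grey are not, and bars are list medians. The median of the 20 cholesterol synthesis genes is -0.30, with none called, and that of the 23 cadherins and protocadherins is 0.14.

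None of 7 measured MEF2 factor and class IIa histone deacetylase genes was called by its brightest probe set, with 3 higher at an unadjusted p under 0.05. Over all probe sets, 2654 of 31042 had such a p in either direction. Mef2a rose in 1 of its 4 probe sets, by 0.67 ± 0.13 (adjusted p = 0.0468), and the 4 estimates ran from 0.37 to 0.67. In MEF2-VP16-ER neurons that probe set went from 1498, 1003 and 956 to 1993, 1389 and 1603, and in control neurons from 1244, 1116 and 1029 to 1395, 861 and 889. The call held in 2 of 12 fits without 1 array (up to 0.151), and replicate 1 gave the smallest of the inductions (0.24, 0.83 and 0.94). Mef2c gave 0.11 ± 0.14 and Mef2d 0.21 ± 0.12. Whether any probes detect the introduced fusion was not examined.

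Promoters of the called genes were read from the RefSeq table (GRCr8, 250 bases before to 50 after the start). The letters CTANNNNTAG, the outer bases of a MEF2 site with a free centre, read the same on both strands. They stood in 3 of 82 promoters of genes that rose (3.66%), in 3 of 57 of genes that fell (5.26%), and in 3.03% of 11733 promoters of genes on the array and 3.83% of 27457 in all. The full MEF2 consensus, searched on both strands and overlapping the first motif, stood in 3 of 82 and 1 of 57, against 1.71% and 3.37%. Each of these counts rests on 3 genes or fewer. Stretches around the match, ending before the start site, are shown, on the gene's strand with the match in capitals, for the 3 genes of the text above that hold the free-centre letters: Mef2a (chr1:130392163-130392247, minus strand, match from -40), Numb (chr6:109284643-109284713, minus strand, from -234) and Inka2 (chr2:195873367-195873432, plus strand, from -239).
Mef2a: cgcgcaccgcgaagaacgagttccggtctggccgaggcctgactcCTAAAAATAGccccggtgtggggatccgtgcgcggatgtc
Numb: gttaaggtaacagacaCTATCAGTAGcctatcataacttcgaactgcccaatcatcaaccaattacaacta
Inka2: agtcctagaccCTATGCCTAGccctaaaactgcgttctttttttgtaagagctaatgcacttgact
Mef2a fits the full consensus, the other 2 only the free-centre form. Mef2a and Numb rose and Inka2 fell, and a match is a description of the letters, not of binding.

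The changes lay mostly in MEF2-VP16-ER neurons. In those neurons alone, 351 probe sets were higher at 2.5 h than at 0 h (1.13%) and 296 lower (0.954%). Of the 142 that rose in the induction, 137 were also called higher there, and of the 100 that fell, 97 were called lower. This overlap is largely built in, because that change is a part of the induction and comes from the same arrays and fit. In control neurons limma called 0 (0%), with 1349 at an unadjusted p under 0.05, where a uniform distribution would give 1552. An opposite control change made up at least 40% of the induction in 16 of the 242. The control changes leaned the other way all the same: they were below 0 in 102 of the 142 and above 0 in 72 of the 100, a direction that subtracting them favours. The 8 probe sets called in the induction and not in MEF2-VP16-ER neurons include a second Pcdh20 probe set. Its induction was 0.68, and its change in those neurons had a limma adjusted p of 0.0798. The Pcdh20 probe set at 0.85 was called there (adjusted p = 0.0116). Zeb2, Trps1 and Rnd3 are also among the 8 and were chosen after their values were seen. Before 4OHT, limma called 0 probe sets between the constructs (0%), though 4502 had an unadjusted p under 0.05, beside the uniform 1552. None of the 242 could thus be called there, which does not show that their levels were equal at 0 h.

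**Figure D4:**
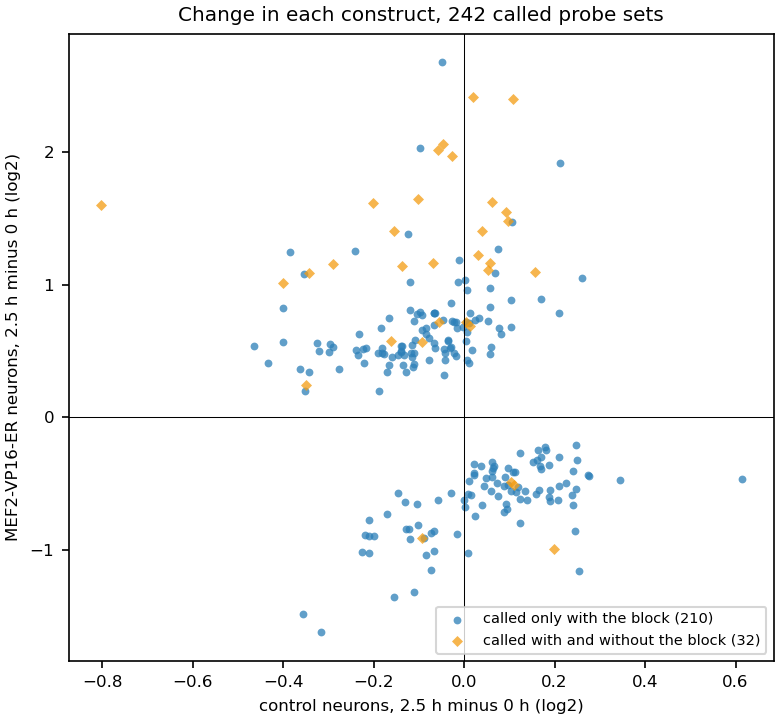
Change from 0 to 2.5 h in control neurons (x axis, log2 units) against that in MEF2-VP16-ER neurons (y axis) for the 242 called probe sets; blue points, 210, were called only with the block and orange points, 32, in both fits. Points spread along the y axis, and most lie near 0 on the x axis.

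The 6 arrays at 1 h took no part in the calls and have the same replicate numbers. There the difference between constructs was above 0 in 126 of the 142 that rose and below 0 in 88 of the 100 that fell, where 45.3% of all probe sets were above 0. Its median was 0.23 in the former, -0.15 in the latter and -0.01 over all. With the block, 76 probe sets were called at 1 h (0.245%), among them 37 of the 142 and 8 of the 100. That fit rests on 2 residual degrees of freedom: 2439 had an unadjusted p under 0.05, and without the block 0 were called. Among the genes already apart at 1 h, Klf6 differed by 1.14 (adjusted p = 0.00225), Bdnf by 1.39 (adjusted p = 0.00129), Nr4a2 by 0.85 (adjusted p = 0.00416) and Txnip by -1.47 (adjusted p = 0.00225). Bdnf at 1 h had 1538, 1416 and 968 with MEF2-VP16-ER and 679, 546 and 294 with the control fusion. Sstr2, Inhbb and Mycn were lower at 1 h, by -0.55, -0.60 and -0.53 (adjusted p = 0.0219, 0.0236 and 0.0219). Most of the other small changes were not yet called there. Numb stood at 0.062, Cpeb3 at 0.05, Epha3 at -0.0097 and Runx1t1 at -0.076. Whether a gene's difference at 1 h differs from that at 2.5 h was not tested.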

How the data were processed

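RNA of 18 samples was measured on Affymetrix arrays. The values are the intensity of each probe set on a linear scale, as deposited by the authors, 1 column per array; medians between 190 and 197 and upper quartiles between 639 and 715 lay close together, and how they were normalized is not given in sources used here. They were used as log2(intensity + 16), which understates changes of dim genes, and 57 array controls were left out. Gene symbols come from the platform's annotation (20826 probe sets with 1 symbol, 436 with several, 9780 with none), and 20758 were found in the RefSeq table.

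Group and replicate number of each array were taken from its label. The 12 arrays at 0 and 2.5 h were fitted in limma (lmFit and eBayes) with 4 group means and replicate number as a fixed block, leaving 6 residual degrees of freedom (prior 5.21). The 6 arrays at 1 h were fitted alone. P-values were adjusted by Benjamini-Hochberg over all 31042 probe sets, without a filter. The numbers were taken as pairs because all 18 same-number correlations were over 0.1. The steps were also run on simulated arrays with known inductions, built from added replicate effects and independent noise. These arrays follow the model of the blocked fit, so the run could not show whether the block suits the real arrays.

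Genes were named by rule from probe sets with 1 symbol, each gene by its probe set of smallest p: among called probe sets with the same sign in all 3 numbers, the 6 largest rises and 6 largest falls, and the 16 rises and 16 falls under 1 log2 unit of smallest p among those called only with the block; up to 4 called members of each of 30 lists; and 21 fixed genes, whatever their sign. Nfil3 completes a list's count, and others outside the rule are marked in the text. The members and lists were chosen with earlier results of these data known. Alternatives tried were no block, a random block, all 18 arrays, quantile normalization, median centring, eBayes with trend and robust, pseudocounts of 1 and 64, only the brighter 15521 probe sets, only 1 for each gene, the 2.5 h arrays alone, and leaving out arrays or replicate numbers. limma 3.58.1 was run in R 4.3.3, and figures were drawn with matplotlib 3.10.9 in Python 3.11.15.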

Additional observations from a re-analysis of the deposited data

Results flagged for a closer look

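In 30 of the 69 called genes named in the report, MEF2-VP16-ER and control neurons moved in opposite directions in every replicate number. The same held in 102 of all 242 called probe sets, and subtracting the control change favours it. In 3 of the 30 the control change was at least 40% of the induction. For Pcdh20 the control change was -0.43, beside 0.41 in MEF2-VP16-ER neurons. For Nr4a2 it was -0.46, beside 0.54. For Sema4a the control change was 0.18, beside -0.25. None of the 3 control changes was called by limma on its own, and the difference between constructs is the induction itself. With 3 samples in each group, single samples were not tested as outliers.

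The arrays at 1 h, which took no part in the calls at 2.5 h, gave 76 called probe sets between the constructs, 59 higher and 17 lower with MEF2-VP16-ER, among them 37 of the 142 that rose at 2.5 h and 8 of the 100 that fell.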

How the results depend on the processing

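Without the block the arrays gave 32 calls, 28 higher and 4 lower, with 179 for the change in MEF2-VP16-ER neurons and 0 at 1 h. With the replicate number as a random effect the induction had 126 calls (84 higher, 42 lower, 94 of them absent without a block), MEF2-VP16-ER neurons 408 and the 1 h arrays 10. The constructs compared at 2.5 h alone, with the block, gave 561. All 18 arrays in the fit gave 291 calls, of which 218 were among the 242. Control neurons had 1 call with 18 arrays, 1 with 1 probe set per gene and 2 with trend and robust. At 1 h a pseudocount of 64 gave 16 calls and trend and robust 143. MEF2-VP16-ER neurons had 425 with 1 probe set per gene. Leaving out 1 array or 1 replicate number, the induction had 54 to 246 calls (35 to 148 higher, 10 to 124 lower, 51 to 228 added by the block), and MEF2-VP16-ER neurons 269 to 813.

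Of 69 called genes named in the report, 57 kept the call without any 1 array, 69 with 18 arrays and 43 with a random block. Without replicate 1, 2 or 3, 30, 24 and 31 kept it. The one change of sign was in Mef2c, not called, at -0.026 without Control 0 h replicate 3, in a range up to 0.25 over these fits. The number of arrays limits the precision: the smallest called induction was 0.36 log2 units.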

Other observations

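Further genes called only with the block lie outside the naming rule and were chosen after their values were seen. Klf5, a zinc-finger factor related to Klf6, rose in 3 probe sets, by 1.43, 0.56 and 0.71. Its brightest probe set went from 272, 222 and 209.5 at 0 h to 622, 532 and 401 at 2.5 h in MEF2-VP16-ER neurons, and from 265, 222 and 122 to 183, 138 and 128 in control neurons. Elavl2, a neuronal RNA-binding protein, rose in 2 probe sets, by 0.60 and 0.56. Adcyap1, which encodes the neuropeptide PACAP, rose by 0.73 and the neuropeptide Y receptor gene Npy1r by 0.97.

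Cxcr4 and Ackr3, both receptors of the chemokine CXCL12, fell by 0.79 and 0.57 on the log2 scale. In MEF2-VP16-ER neurons Cxcr4 went from 613, 611 and 679 to 302, 349 and 268, and in control neurons from 578, 542 and 706 to 510.0, 489 and 545. Among secreted factors, the neurotrophin gene Ntf3 fell by 0.71 and Wnt4 by 0.82, while Bdnf rose. Cbfa2t3, a corepressor of the same family as Runx1t1, fell by 0.41. Ddit4, an inhibitor of the kinase mTOR, fell by 0.92 and Nab2, a corepressor of Egr1, by 0.82.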
